A study of Mus musculus with 41 samples.

Results

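Mice ranked at either end of a cognitive scale, 5 with high and 8 with low cognition, were compared together with 12 mice of medium cognition, to find hippocampal genes for which both extremes lay on the same side of medium. These 25 arrays were all those of the 41 in the series assigned to 1 of these 3 classes. The other arrays came from 14 mice labelled as inconsistent and 2 mice with incomplete behavioural data. For inconsistent replicate 2 the label contradicts itself, naming the mouse inconsistent and also consistently medium, and it was kept out of the comparison. With it in the medium group 0 probe sets passed the threshold and 2168 had an unadjusted p under 0.05, beside the 2064 reported below. All were male inbred C57BL/6J mice that received the same behavioural battery from an age of 10 weeks and no other treatment named in the labels. Learning and memory were scored in 5 tests that gave 11 parameters, from a Barnes maze at 10 to 11 weeks to passive avoidance at 37 to 38 weeks, and a mouse entered a class when 2 ranking systems placed it there. RNA was taken from the hippocampi 1 month after the last test and hybridised to 1 Affymetrix array per mouse. The mice share 1 genetic background and 1 tissue, and the class was observed rather than assigned. The contrast was the mean of the high and low group means minus the medium mean, so that each extreme had equal weight, on a scale of log2(intensity + 16). Positive differences mean higher signal in the extremes.

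The hippocampus stores spatial and contextual memory, and learning there depends on signalling from glutamate receptors through calcium to the nucleus. Neuronal firing switches on immediate early genes such as Fos, whose products and targets, among them the neurotrophin Bdnf, adjust synapses. Many of these genes carry a cAMP response element in their promoters, bound by CREB and its coactivator Crebbp. Chromatin enzymes set how strongly such genes respond, and the series asks which hippocampal genes under such control go with general cognitive performance.

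Medium replicate 9 stood apart, with a median correlation to the other arrays of 0.959 against at least 0.984 for the other medium arrays, 0.975 for the low and 0.985 for the high arrays. In it the mean level of 11 striatal markers was 9.28, where the other medium arrays reached 8.56 at most. The mean of 14 dentate granule cell markers was 7.08 in this array, where no other medium array was under 8.25. Pyramidal markers were also low in it, at 8.09 against at least 9.02. The main counts, and the lists named below whose balance moved, are also given without this array. The labels name no processing batch, but clustering on 45 probe sets for spiked control RNA divided the arrays into 3 sets, which rest on values alone. The largest, of 24 arrays, held 9 extreme arrays (4 high and 5 low) and 5 medium arrays. The next, of 10 arrays, held 3 extreme arrays (1 high and 2 low) and 5 medium arrays, with medium replicate 9 among them. The smallest held 1 extreme array, which was low, and 2 medium arrays. The high arrays were thus mostly in the largest set and the medium arrays were not.

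No gene separated both extremes from medium past the threshold. Of 22519 probe sets tested with limma, 0 (0%) had a Benjamini-Hochberg adjusted p under 0.05, and the smallest was 0.242. An unadjusted p under 0.05 was reached by 2064 probe sets, or 9.17%. Both extremes lay on the same side of medium in 2042 of these, 1147 above and 895 below. A stricter reading asks that high and low each differ from medium, which the larger of their p-values measures. It was under 0.05 for 222 probe sets, or 0.986%, of which 124 were above and 98 below medium, and 0 passed after adjustment. Without medium replicate 9 the counts were 0 past the threshold, 1862 at an unadjusted p under 0.05 and 191 by the larger p.

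The high mice lay further from medium than the low mice in most of these probe sets. In the same fit 2971 probe sets (13.2%) had an unadjusted p under 0.05 for high against medium and 698 (3.1%) for low against medium. After adjustment 7 passed for high against medium, 0 for low against medium and 2 for high against low. Among the 2042 probe sets with both extremes on 1 side and an unadjusted p under 0.05, the high group lay further from medium than the low group in 1817, or 89%, beside 69.3% of all 14615 probe sets with both extremes on 1 side. High minus low itself had an unadjusted p under 0.05 in 1837 probe sets (8.16%). The high mean rests on 5 arrays and the low mean on 8, so it also varies more.

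**Figure D1:**
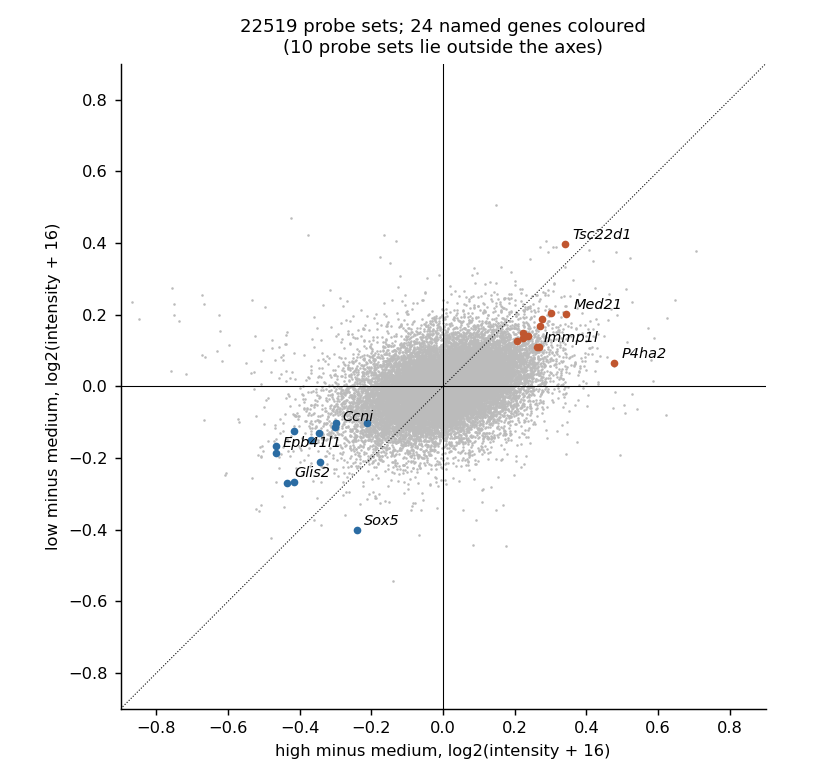
Difference of the high from the medium group (x axis) against that of the low from the medium group (y axis), both in log2(intensity + 16), with 1 point for each of 22519 probe sets, 10 of which lie outside the axes. The 24 genes named below are coloured, those with both extremes above medium in orange and those below in blue; 22 of them sit nearer to the x axis than to the y axis, and the dotted line marks equal differences.

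Among genes with both extremes below medium, the smallest p belonged to Ccni, an atypical cyclin. The high arrays read 10.51, 10.53, 10.59, 10.64 and 10.66, the low arrays 10.60 to 10.88 with a median of 10.79 and the medium arrays 10.70 to 11.04 with a median of 10.89. All 5 high arrays lay under the lowest medium array, while low and medium arrays overlapped. The contrast was -0.21 ± 0.04 (SE) with a limma adjusted p of 0.242, and all 13 extreme arrays lay under the medium median. Its other 3 tested probe sets gave differences of -0.01, -0.10 and -0.13.

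Epb41l1 encodes a membrane cytoskeleton protein of neurons that anchors receptors at synapses. Its high arrays were 7.13, 7.18, 7.36, 7.69 and 7.76, its low arrays spanned 7.56 to 7.85 with a median of 7.73 and its medium arrays spanned 7.67 to 8.05 with a median of 7.95. Both extremes spread into the medium range, with 3 high arrays and 3 low arrays under every medium array. The contrast was -0.33 ± 0.06 (SE), at a limma adjusted p of 0.242. Without high replicate 1, and with no other array left out, it passed the threshold, at -0.37 and a limma adjusted p of 0.0434. The other 2 probe sets of the gene gave -0.08 and -0.03.

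Crocc, which builds the rootlet of cilia, read 5.79, 5.93, 5.94, 6.00 and 6.13 in high, 6.03 to 6.45 with a median of 6.28 in low and 6.10 to 6.73 with a median of 6.44 in medium arrays. The contrast was -0.32 ± 0.06 (SE) at a limma adjusted p of 0.242, and medium replicate 9 was the highest of all medium arrays. Without that array the contrast was -0.29. Serinc3, a membrane protein of the serine incorporator family, read 10.69, 10.70, 10.71, 10.82 and 10.93 in high, 10.77 to 10.95 with a median of 10.89 in low and 10.85 to 11.08 with a median of 10.98 in medium arrays. All 13 extreme arrays lay under its medium median and 6 of them under every medium array, with a contrast of -0.16 ± 0.04 (SE) and a limma adjusted p of 0.312. Of its 4 other probe sets 3 had the opposite sign, at 0.02, 0.04 and 0.06.

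The other named genes below medium covered transcription, signalling and RNA binding. Contrasts were -0.26 for Gtf3c2, a subunit of an RNA polymerase III initiation factor, -0.20 for the growth factor receptor Fgfr3, -0.35 for the zinc finger factor Glis2 and -0.32 for the developmental transcription factor Sox5. The RNA-binding gene Hnrnpdl stood at -0.27, the endocytosis gene Fcho1 at -0.28, the mitochondrial ribosomal gene Mrpl15 at -0.34 and the acyl-CoA-binding gene Acbd4 at -0.24. The probe sets of Glis2, Sox5 and Mrpl15 were dim. Their means were 5.699, 5.832 and 6.048 in extreme arrays and 6.032, 6.172 and 6.373 in medium arrays, in that order. Sox5 was the 1 gene of the 12 below medium in which the low mice (-0.40) lay further from medium than the high mice (-0.24). The low arrays spanned 5.51 to 6.08 with a median of 5.76, the medium arrays 5.94 to 6.47 with a median of 6.16. The other probe sets of Sox5 were brighter and ranged from -0.08 to -0.03. In each of them the high mice lay further from medium than the low mice. The probe set of Mrpl15 stood alone, since the other 4 probe sets ranged from 0.02 to 0.09. The 6 other probe sets of Hnrnpdl ranged from -0.29 to 0.06, with 5 of them below 0, and the other of Fcho1 gave -0.29. The other probe set of Glis2 gave -0.20 and that of Acbd4 0.01.

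Among genes with both extremes above medium, Immp1l had the smallest p. It encodes a subunit of the peptidase of the mitochondrial inner membrane. The high arrays read 9.45, 9.54, 9.54, 9.58 and 9.63, the low arrays 9.24 to 9.53 with a median of 9.43 and the medium arrays 9.14 to 9.42 with a median of 9.28. All 5 high arrays and 5 of 8 low arrays lay above the highest medium array, the other low arrays overlapped with medium, and the contrast was 0.19 ± 0.04 (SE) at a limma adjusted p of 0.284. Medium replicate 9 was the lowest array, and without it the contrast was 0.17.

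Polr1d, a subunit shared by RNA polymerases I and III, stood at 0.28 in the high and 0.19 in the low mice. Its high arrays were 9.83, 9.91, 9.93, 10.06 and 10.12, its low arrays 9.70 to 10.11 with a median of 9.88 and its medium arrays 9.51 to 9.96 with a median of 9.69. All 13 extreme arrays lay above the medium median, and high minus low was 0.09 with a limma adjusted p of 0.795. The contrast was 0.23 ± 0.05 (SE), at a limma adjusted p of 0.312, and the gene's 3 other probe sets gave -0.01, -0.06 and -0.06.

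Med21, a subunit of the Mediator complex that links transcription factors to RNA polymerase II, read 7.58, 7.67, 7.82, 7.84 and 7.85 in high, 7.49 to 7.77 with a median of 7.59 in low and 7.01 to 7.62 with a median of 7.46 in medium arrays. Its contrast was 0.27 ± 0.06 (SE) at a limma adjusted p of 0.312. Tsc22d1, a leucine zipper regulator of transcription, read 9.43, 9.63, 9.63, 9.83 and 9.89 in high, 9.41 to 10.33 with a median of 9.76 in low and 9.15 to 9.73 with a median of 9.34 in medium arrays. For both genes every extreme array lay above the medium median and 7 of 13 above every medium array. In Tsc22d1 the low mice lay slightly further from medium (0.40) than the high mice (0.34). Low replicate 5 read 10.33 there with the next low array at 9.83, so this order may rest on 1 array, which was not tested. The contrast of Tsc22d1 was 0.37 ± 0.09 (SE), and its 5 other probe sets ranged from -0.16 to 0.05, so the difference was seen at 1 probe set of the gene.

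**Figure D2:**
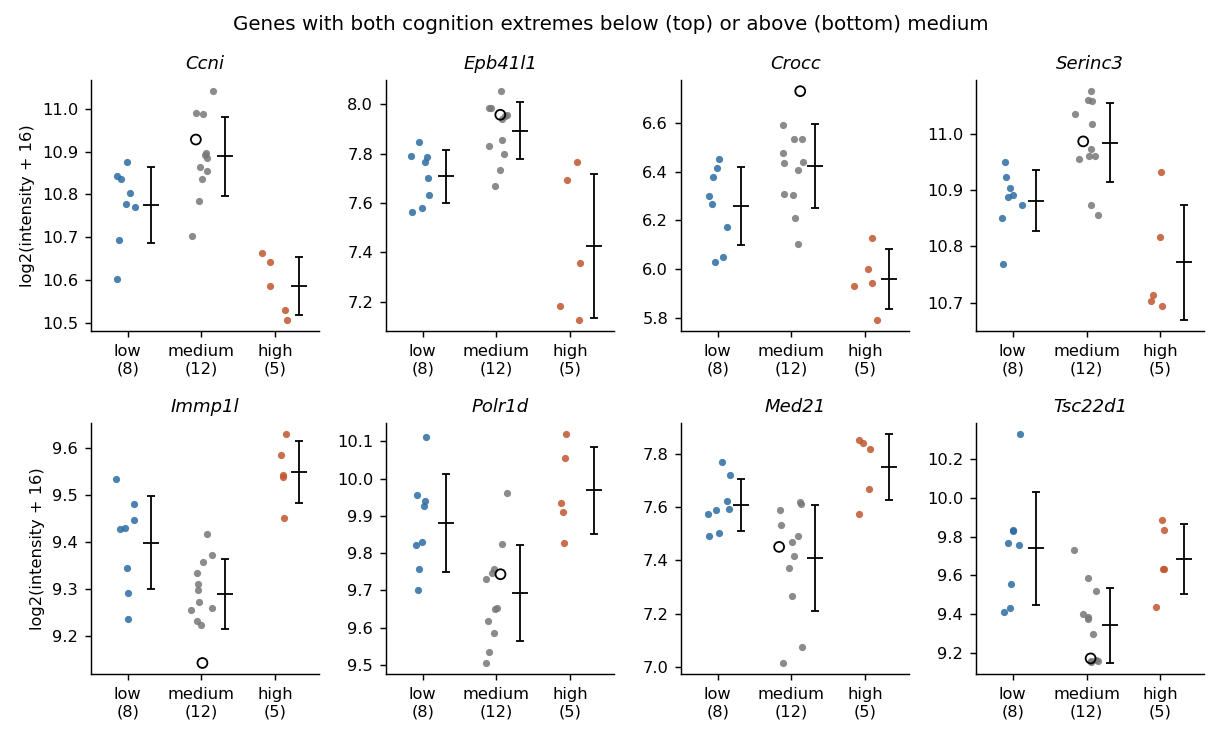
Signal in log2(intensity + 16) in each array of the low (8), medium (12) and high (5) groups for 4 genes with both extremes below medium (top row) and 4 above (bottom row). Points are arrays, the open circle is medium replicate 9, and bars beside the points show the mean and SD. High arrays of Ccni sit between 10.51 and 10.66, under all medium arrays, while the groups overlap in part for Polr1d.

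The remaining genes above medium included several of nuclear and mitochondrial function. Contrasts were 0.22 for the acylphosphatase Acyp1, 0.19 for the hydrolase Hddc3, 0.19 for Hspe1, the mitochondrial co-chaperonin, 0.25 for Uty, the Y-linked relative of a histone demethylase, and 0.17 for Tfpt, a subunit of the INO80 chromatin remodeller. Amz2, a metalloprotease, stood at 0.18, Eola1 at 0.19 and P4ha2, a collagen prolyl hydroxylase, at 0.27. In P4ha2 the low mice were at 0.07 and the high mice at 0.48. High minus low of P4ha2 was 0.41 at a limma adjusted p of 0.299. Its larger p, 0.389, was the highest of the 24 named genes. The other 2 probe sets of Acyp1 gave -0.07 and -0.03 and those of Tfpt -0.01 and -0.05, while the other of Hspe1 gave 0.07 and that of Amz2 0.08.

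Across the 24 named genes limma adjusted p ran from 0.242 to 0.312 and in 0 did extreme and medium arrays separate completely. Two-sided permutation of 13 extreme against 12 medium arrays, which weights arrays and not groups equally, gave p from 0.00014 to 0.0192, for genes picked by this contrast. The 18 genes with further probe sets had 44 of them, of which 26 had the same sign and 8 also an unadjusted p under 0.05. Repeating the fit without medium replicate 9 kept all 24 at an unadjusted limma p under 0.05, and so did the spike-in grouping as a block. Within the largest spike-in set alone, 12 of 12 genes below and 9 of 12 above medium had an unadjusted p under 0.05, the exceptions being Immp1l, Hspe1 and P4ha2, and all 24 kept their sign. These refits reuse the arrays by which the genes were picked, so such agreement was largely fixed in advance. Over all 22519 probe sets, 1862, 1666 and 1003 had an unadjusted limma p under 0.05 in these fits, in the same order.

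Ranking by the larger p, a choice made after the values were seen, favoured genes with like distances at both ends. It brought in Spg21, Mitd1 and Pigbos1 above medium. Below medium it brought in Ppp1r13l, Tcf25, Atg4c, Rpl41, Sash3, Marchf2, Abcc5, Kmt2e and Grwd1. Ppp1r13l, an inhibitor of p53 family proteins, had the smallest larger p of these, 0.00399, at -0.28 in high and -0.24 in low mice. Its high arrays read 6.01, 6.15, 6.21, 6.45 and 6.61, its low arrays 6.19 to 6.48 with a median of 6.33 and its medium arrays 6.18 to 6.75 with a median of 6.60. The other probe sets of Ppp1r13l had smaller contrasts, of -0.07 and -0.06. Kmt2e, a chromatin gene of the histone methyltransferase family, stood at -0.18 in the high and -0.15 in the low mice, and its 3 other probe sets lay between -0.01 and 0.01. Atg4c, a protease of autophagy, was at -0.22 and -0.17. All adjusted values of the larger p were 1. Rpl41 has many near-identical copies in the genome, so its probe set is uncertain. This probe set was also dim, with means of 5.649 in extreme and 5.895 in medium arrays. The gene's other probe sets gave 0.04 and 0.03 at mean levels of 12.32 and 11.24, and -0.06 at 5.95.

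Gene lists were described by 1 probe set per gene, the brightest, against 11218 genes. In that background both extremes lay above medium for 30.9% of genes and below for 33.7%, and the contrast was higher with an unadjusted p under 0.05 for 4.91% and lower for 4.16%. Its median was -0.0032. Without medium replicate 9 the shares on each side were 31.5% and 29.2%. No member of any list passed the adjusted threshold. With no normalization between arrays the median of all probe sets was -0.138, and among the 39 lists the immediate early factors alone kept a median above 0, at 0.032, so that the directions below hold relative to the other genes of the arrays. The lists hold between 2 and 46 measured genes and were drawn from textbook knowledge of each pathway or cell type. They were chosen with earlier results of these data known, so their shares beside the background are a description only.

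Immediate early transcription factors lay mostly above medium at both ends. Of 16 measured, 11 (68.8%) had both extremes above and 1 below, with a median contrast of 0.165, or 0.135 without medium replicate 9. With the spike-in grouping as a block the median was 0.179. The mean level of the list ranged from 8.11 to 8.54 in high, 7.74 to 8.70 in low and 7.74 to 8.63 in medium arrays, so the groups overlapped throughout. The lowest high array lay above the lowest array of either other group, but the high group holds 5 arrays against 8 and 12. The 14 inconsistent mice, outside the comparison, had a list mean of 8.368, beside 8.321 in high, 8.352 in low and 8.159 in medium arrays.

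Btg2, an antiproliferative gene induced by growth factors and firing, and Klf4, a zinc finger factor, had the smallest p of the list. Btg2 read 7.25, 7.43, 7.53, 7.83 and 7.93 in high, 7.26 to 7.87 with a median of 7.77 in low and 6.90 to 7.90 with a median of 7.22 in medium arrays. All 13 extreme arrays lay above its medium median and 1 above every medium array. The contrast was 0.35 ± 0.12 (SE) at a limma adjusted p of 0.4, with 0.32 for high and 0.39 for low mice. The other probe set of Btg2 gave -0.02, so the difference was seen at 1 of its probe sets. Klf4 had a contrast of 0.30 and a limma adjusted p of 0.534, and 0.12 at its other probe set. Fos, the subunit of AP-1, was at 0.39 ± 0.30 (SE) and Npas4, a firing-induced factor, at 0.26 ± 0.27 (SE), each with a wide spread: Fos spanned 7.39 to 9.90 with a median of 9.50 in low and 7.46 to 9.97 with a median of 8.55 in medium arrays.

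Effectors of activity also leaned above medium. Of 21 measured, 12 (57.1%) had both extremes above and 3 below, with a median of 0.101 (0.126 without medium replicate 9). An unadjusted p under 0.05 in the higher direction was reached by 6, or by 4 without that array. Bdnf read 9.22, 9.26, 9.27, 9.31 and 9.34 in high, 8.88 to 9.42 with a median of 9.08 in low and 8.67 to 9.23 with a median of 8.87 in medium arrays. Of its 5 high arrays 4 lay above every medium array, all 13 extreme arrays lay above the medium median, and medium replicate 9 was the lowest array. The contrast was 0.26 ± 0.06 (SE) at a limma adjusted p of 0.312, 0.24 without that array and 0.15 at the other probe set. Dusp5 and Dusp4, phosphatases that switch off MAP kinases, were at 0.34 and 0.18. Plk2, a kinase of synaptic scaling, was at 0.10. Arc, which removes glutamate receptors from synapses, was at 0.35 ± 0.22 (SE) with medium arrays spanning 7.37 to 9.53 with a median of 8.48. The scaffold gene Homer1 was at 0.05 ± 0.05 (SE), with the extremes on opposite sides at this probe set. Its other probe sets ranged from -0.05 to 0.30. The highest of them stood at 0.59 in high and 0.01 in low mice, the lowest at -0.02 and -0.07.

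**Figure D3:**
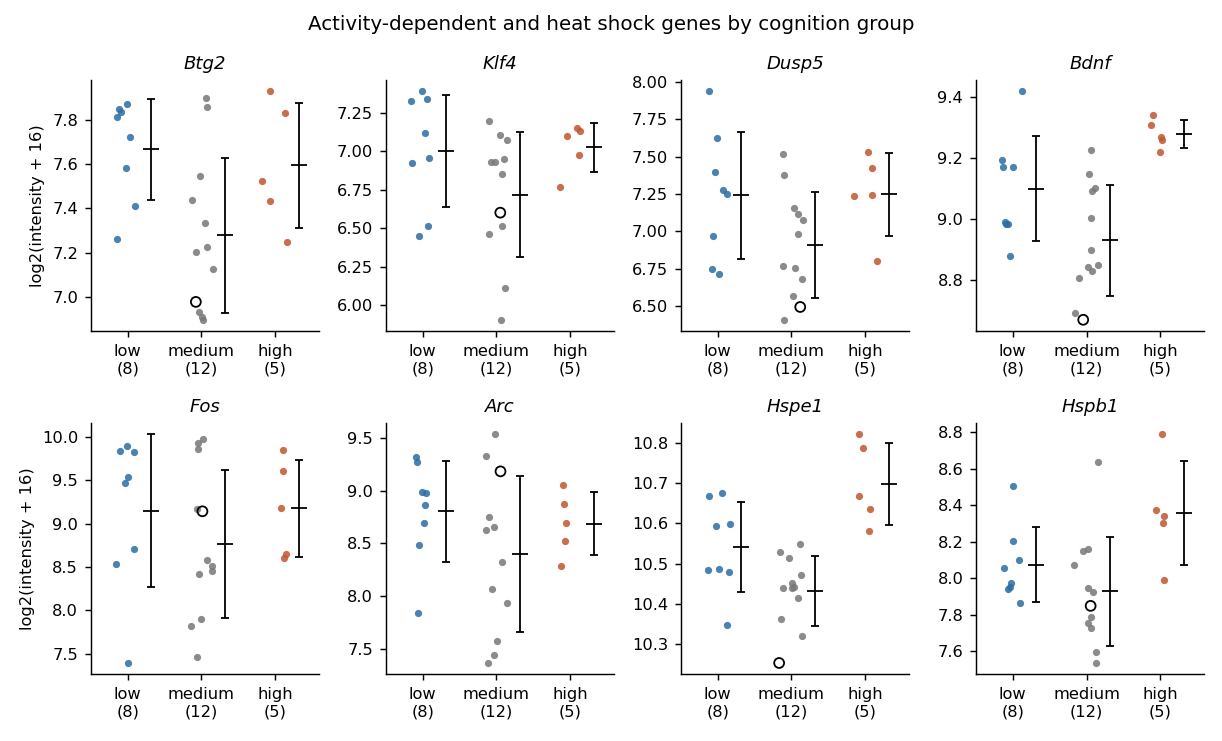
Signal in log2(intensity + 16) in each array of the low (8), medium (12) and high (5) groups for activity-dependent genes (Btg2, Klf4, Dusp5, Bdnf, Fos, Arc) and heat shock genes (Hspe1, Hspb1). Points are arrays, the open circle is medium replicate 9, and bars show the mean and SD. For Hspe1 all high arrays lie above all medium arrays, while for Fos and Arc no high array does.

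The upstream sequences of 4 activity genes that stood above medium at both ends are shown because the cAMP response element is the best known switch of such genes. They are the 250 bases before the annotated gene start on the gene's own strand, from RefSeq with build GRCm38.p6, and capitals mark the core TGACG of the element on either strand, which in Btg2 lies on both strands, overlapping, within the whole element TGACGTCA. Bdnf has 7 entries, and the 1 with the motif is shown.
Btg2 (chr1:134079156-134079405, minus strand): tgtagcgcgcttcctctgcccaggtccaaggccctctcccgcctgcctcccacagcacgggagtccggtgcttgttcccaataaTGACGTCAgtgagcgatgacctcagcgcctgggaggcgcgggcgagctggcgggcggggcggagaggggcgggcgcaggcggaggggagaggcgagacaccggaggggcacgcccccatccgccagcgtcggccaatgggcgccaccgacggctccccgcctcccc
Klf4 (chr4:55532476-55532725, minus strand): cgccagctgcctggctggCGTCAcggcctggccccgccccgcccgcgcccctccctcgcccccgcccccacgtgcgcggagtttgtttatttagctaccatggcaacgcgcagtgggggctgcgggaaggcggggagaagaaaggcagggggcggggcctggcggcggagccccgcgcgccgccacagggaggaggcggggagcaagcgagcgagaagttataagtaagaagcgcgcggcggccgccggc
Dusp5 (chr19:53528895-53529144, plus strand): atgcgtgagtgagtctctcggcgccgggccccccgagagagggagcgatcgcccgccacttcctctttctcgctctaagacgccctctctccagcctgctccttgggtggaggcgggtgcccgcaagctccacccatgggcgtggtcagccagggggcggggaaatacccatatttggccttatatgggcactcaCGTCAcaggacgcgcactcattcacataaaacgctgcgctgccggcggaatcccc
Bdnf (chr2:109692186-109692435, plus strand): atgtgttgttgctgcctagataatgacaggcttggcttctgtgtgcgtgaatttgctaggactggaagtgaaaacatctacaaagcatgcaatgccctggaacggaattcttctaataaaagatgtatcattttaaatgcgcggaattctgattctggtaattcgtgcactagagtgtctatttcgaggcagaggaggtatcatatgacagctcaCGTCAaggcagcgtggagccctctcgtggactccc
The whole element TGACGTCA was found in Btg2 of these, and in 1.55% of 32851 upstream sequences in the table. The core was found in 17.8% of them and in at least 1 entry of 19.8% of 27025 genes. Of the immediate early factors 13 had an entry and 11 held the core, and of the activity effectors 14 had an entry and 9 held it. The lists were made of genes known to respond to firing, and a match describes letters, not binding.

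Heat shock and folding genes lay above medium by more in the high than in the low mice. Of 19 cytosolic chaperone and heat shock genes, 10 (52.6%) had both extremes above and 2 below, with a median of 0.083, and the medians were 0.17 for high and 0.012 for low mice. Without high replicate 1 the list median was 0.0498. Hspe1, named above, read 10.58, 10.64, 10.67, 10.79 and 10.82 in high, 10.35 to 10.68 with a median of 10.54 in low and 10.25 to 10.55 with a median of 10.44 in medium arrays, with every high array above every medium array. Its contrast was 0.19 ± 0.04 (SE) at a limma adjusted p of 0.312. Hspb1, a small heat shock protein, stood at 0.43 in the high and 0.15 in the low mice, and the co-chaperone Dnajb1 at 0.42 and 0.11. Hspa4, a nucleotide exchange factor for other chaperones, went the other way, at -0.20 in high and -0.21 in low mice. Hspa1b, the inducible chaperone with a near-identical copy in Hspa1a, stood at 0.62 in the high and -0.08 in the low mice and is therefore not a gene of both extremes. Within the largest spike-in set its contrast turned to -0.09, and the list median there was 0.039, against 0.24 in the next largest set. The latter set held 1 high array, high replicate 1, whose list mean of 10.51 was the highest of the high group.

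The heat shock element GAANNTTC, the site of the heat shock factor, was searched on both strands of the same 250 bases. It is shown in capitals for Hspe1 and Hspb1, which stood above medium at both ends, and Hspa1b, which did not, also held it.
Hspe1 (chr1:55087898-55088147, plus strand): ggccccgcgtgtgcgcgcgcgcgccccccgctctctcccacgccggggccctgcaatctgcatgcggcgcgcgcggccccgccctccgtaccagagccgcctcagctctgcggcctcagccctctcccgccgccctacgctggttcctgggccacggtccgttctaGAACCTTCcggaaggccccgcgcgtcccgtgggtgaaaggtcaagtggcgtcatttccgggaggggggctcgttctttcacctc
Hspb1 (chr5:135887669-135887918, plus strand): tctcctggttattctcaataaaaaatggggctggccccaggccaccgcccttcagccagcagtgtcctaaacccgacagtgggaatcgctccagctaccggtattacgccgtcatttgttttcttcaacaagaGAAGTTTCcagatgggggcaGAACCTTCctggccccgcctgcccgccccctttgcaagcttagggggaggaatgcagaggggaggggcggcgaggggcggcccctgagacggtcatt
This motif was held by 6.69% of all upstream sequences and by at least 1 entry of 7.73% of genes. Of the chaperone list 16 genes had an entry and 7 held it, while Dnajb1, with 2 entries, held none in these windows.

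Genes of endoplasmic reticulum stress, which answer to unfolded secretory proteins, had a like pattern. Of 21 measured, 11 (52.4%) had both extremes above and 5 below, with a median of 0.074 (0.076 without medium replicate 9). The median was 0.165 for high and 0.0092 for low mice. Leaving out high replicate 1 lowered the list median to 0.0485 and leaving out medium replicate 3 raised it to 0.115. Manf, a secreted stress protein, stood at 0.48 in the high and 0.06 in the low mice, and the disulfide isomerases Pdia6 and Pdia3 had contrasts of 0.23 and 0.13. Atf4, a transcription factor of the stress response, was at 0.11 and 0.09, with all 13 extreme arrays above the medium median. High minus low was 0.42 for Manf at a limma adjusted p of 0.49. An unadjusted p under 0.05 was reached by 6 members, or 3 without medium replicate 9.

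Glucocorticoid response genes depended on the arrays used. Of 21, 12 (57.1%) had both extremes above and 1 below, with a median of 0.061. Without medium replicate 9 the count above was 7 and the median 0.022, without medium replicate 3 the median was 0.102, and within the largest spike-in set the median was -0.028. Errfi1 was at 0.25 and Nfkbia at 0.19. Klf9 stood at 0.26 in the high and 0.02 in the low mice, and Fkbp5, the receptor's co-chaperone, at 0.12 and 0.03. The other probe sets of Klf9 had contrasts from -0.13 to 0.07. That of Fkbp5 had the extremes on opposite sides, at 0.17 in the high and -0.15 in the low mice.

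Genes of protein turnover and respiration leaned above medium by small amounts, and no member passed the adjusted threshold. Of 31 proteasome subunits, 23 (74.2%) had both extremes above medium and 3 below, with a median of 0.041, and 19 were above without medium replicate 9. Psmd6 was at 0.08 and Psma3 at 0.08, and the other probe sets gave -0.01 for Psmd6 and -0.02 for Psma3. Of 46 respiratory chain genes, 28 (60.9%) had both extremes above and 4 below, with a median of 0.035, and 8 had a higher contrast with an unadjusted p under 0.05, or 5 without medium replicate 9. Leading members were Sdhd at 0.11, Ndufa7 at 0.09, Uqcrh at 0.09 and Ndufa4 at 0.09. The other probe set of Sdhd gave -0.11, while the 4 others of Ndufa7 ranged from 0.09 to 0.20 and the other of Uqcrh gave 0.16. Of 26 cytosolic ribosomal genes, 14 (53.8%) had both extremes above and 5 below, with a median of 0.022, and Rps18 and Rps25 led at 0.12 and 0.12, both with near-identical copies in the genome. The 2 other probe sets of Rps18 gave 0.05 and -0.0019. With no normalization between arrays the medians of these lists were -0.091, -0.077 and -0.073, below 0 but above the median of all probe sets there. Within the largest spike-in set alone the list medians were smaller, at 0.023, 0.021 and 0.0099 in the same order.

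**Figure D4:**
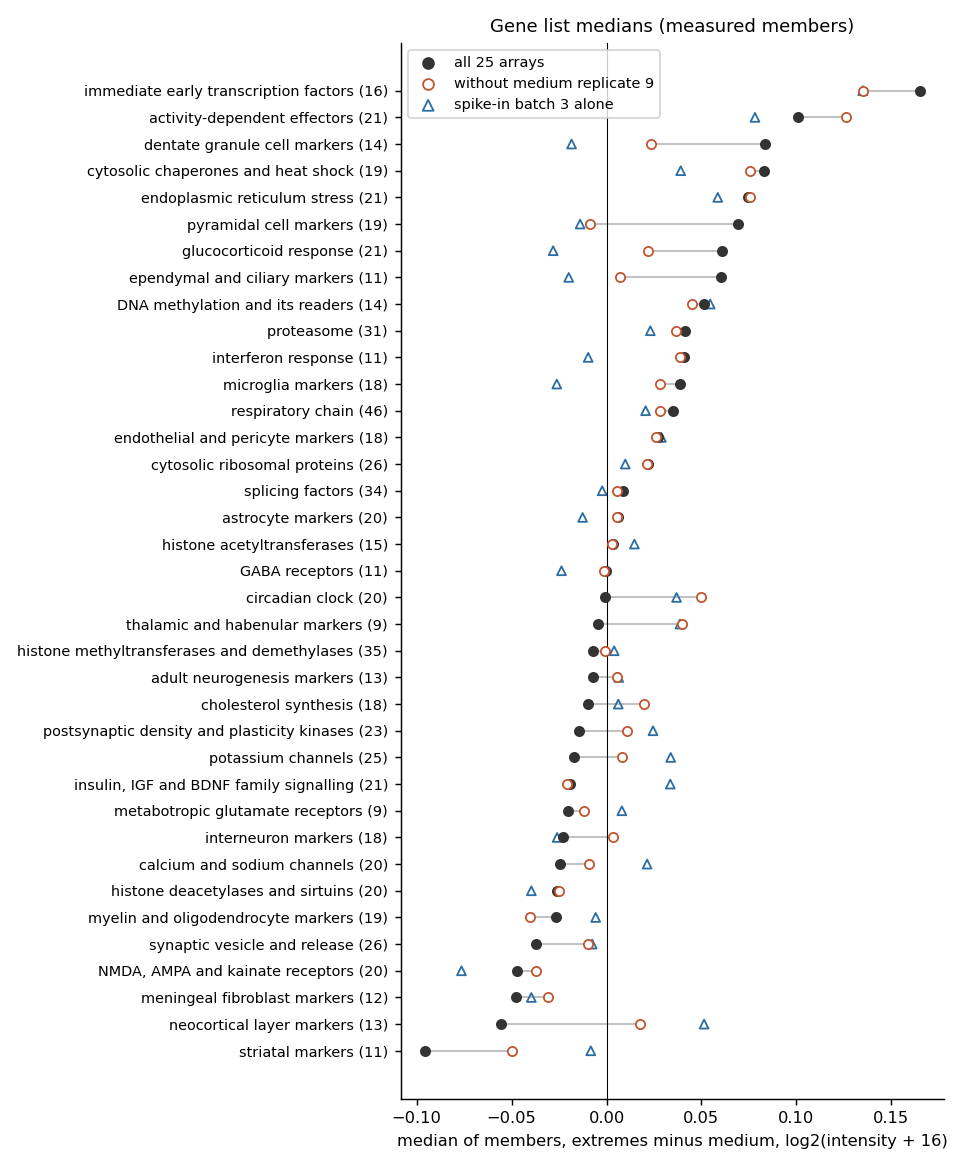
Median contrast (x axis, extremes minus medium, log2(intensity + 16)) of the measured members of each gene list with at least 9 of them, choroid plexus markers left out. Filled points use all 25 arrays, open circles leave out medium replicate 9 and triangles use the largest spike-in set alone. Immediate early factors are at 0.165 and 0.135 with and without that array, while pyramidal markers pass from 0.069 to -0.0089.

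Epigenetic regulators, the subject of the series, differed in balance between lists. Of 14 genes of DNA methylation and its readers, 7 (50%) had both extremes above and 3 below, with a median of 0.051, and 0 had an unadjusted p under 0.05. Dnmt3a, a de novo DNA methyltransferase, was at 0.02 ± 0.06 (SE), and its 3 other probe sets ranged from -0.11 to -0.01. Histone deacetylases and sirtuins leaned below, with 10 of 20 (50%) below at both ends and 1 above, at a median of -0.026, which ranged from -0.046 without high replicate 2 to -0.0084 without high replicate 3. Hdac11 had the smallest p at -0.12, with 0.15 at its other probe set, and Hdac2 was at 0.02 ± 0.04 (SE). Histone acetyltransferases were divided, with 5 of 15 above and 5 below. Kat2a was at -0.12, and the coactivator Crebbp stood at 0.18 in the high and -0.0021 in the low mice. The 2 other probe sets of Crebbp gave -0.06 and -0.03. Of 35 histone methyltransferases and demethylases, 12 had both extremes above and 13 below. The demethylase Kdm3a led at 0.27 in high and 0.05 in low mice, followed by Dot1l at -0.16 and Eed at 0.11.

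Glutamate receptor subunits lay below medium more often than above. Of 20 NMDA, AMPA and kainate receptor genes, 11 (55%) had both extremes below and 5 above, with a median of -0.047. Without medium replicate 9 there were 8 below and 4 above, with a median of -0.037. Grik5, a kainate receptor subunit, read 7.52, 7.68, 7.70, 7.79 and 7.92 in high, 7.68 to 8.34 with a median of 8.13 in low and 7.55 to 8.91 with a median of 8.17 in medium arrays. Its highest value was medium replicate 9, and the contrast was -0.32 ± 0.11 (SE) with that array and -0.26 without it. The NMDA receptor subunits Grin2c and Grin2b were at -0.24 and -0.14, but the other 2 probe sets of Grin2b gave 0.12 and 0.08. Of 26 synaptic vesicle and release genes, 15 (57.7%) had both extremes below and 2 above, with a median of -0.037. Without medium replicate 9 there were 9 below and 4 above, and the median was -0.0095. Sv2a, a vesicle glycoprotein, was at -0.15 with that array and -0.11 without. Camk2a, the main kinase of synaptic plasticity, was at -0.06 ± 0.10 (SE).

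Receptors and adaptors of growth factors were mixed. Of 21 genes of insulin, IGF and BDNF signalling, 7 had both extremes above and 5 below. Irs1, the insulin receptor substrate, stood at 0.25 in the high and 0.05 in the low mice. High minus low of Irs1 was 0.19 at a limma adjusted p of 0.49.

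The 13 measured neurogenesis markers had a median of -0.0071, with 5 above at both ends and 3 below. Neurod1, a transcription factor of newborn granule neurons, read 8.65, 8.67, 8.68, 8.72 and 8.81 in high, 8.33 to 9.25 with a median of 8.46 in low and 8.14 to 8.58 with a median of 8.30 in medium arrays. The 5 high arrays lay above every medium array, 1 low array did so, and the rest of the low arrays overlapped with medium. Its contrast was 0.30 ± 0.08 (SE) at a limma adjusted p of 0.357, 0.28 without medium replicate 9 and 0.04 at its other probe set. Sox11, another factor of young neurons, was at 0.29 with that array and 0.20 without it, and its 5 other probe sets were between 0.09 and 0.19. Mcm2, a replication helicase of dividing cells, was at -0.24. In whole tissue, fewer cells of a type and less RNA per cell cannot be told apart.

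Markers of mature hippocampal cells and of neighbouring tissue moved with medium replicate 9. Of 14 dentate granule markers, 12 (85.7%) had both extremes above medium and 0 below, with a median of 0.083. Without that array 6 were above and the median was 0.024. Of 19 pyramidal markers, 12 (63.2%) were above and 3 below, at 0.069, and without it 4 were above, 8 below and the median was -0.0089. Striatal markers went the other way, with 8 of 11 (72.7%) below and 0 above at -0.095, or 5 below and 3 above at -0.05 without the array. Neocortical markers had a median of -0.056 with it and 0.018 without. Prox1, the factor that defines granule cells, was at 0.20 ± 0.15 (SE) with the array and 0.05 without. The striatal signalling gene Ppp1r1b was at -0.35 ± 0.16 (SE) and -0.23, and Rgs9 was at -0.29 and -0.23 and Adcy5 at -0.17 and -0.11, in the same order. The other probe sets gave -0.0080 and -0.11 for Prox1 and 0.12 for Adcy5. The part of this array's marker levels in the results above was not tested beyond leaving it out.

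Markers of glia, interneurons and vessels had medians between -0.026 and 0.039. Of 20 astrocyte markers 6 had both extremes above and 5 below, of 19 myelin markers 3 and 7, of 18 microglia markers 10 and 2, and of 18 endothelial and pericyte markers 8 and 2. Gfap, the astrocyte filament gene, was at 0.03 ± 0.14 (SE), and Mbp, a myelin gene, at -0.05 ± 0.03 (SE). Of 18 interneuron markers 5 were above and 9 below, or 7 and 7 without medium replicate 9, and the enzyme and transporter of GABA, Gad1 and Slc32a1, were at -0.11 and -0.22, with 0.02 at the other probe set of Gad1. Of 11 ependymal markers 6 were above and 1 below at a median of 0.06, or 6 and 3 at 0.0072 without medium replicate 9, and the median was -0.02 within the largest spike-in set. Rarres2 was at 0.23, with -0.05 at its other probe set.

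Choroid plexus markers did not belong to the pattern of both extremes. All 9 measured members of the 20 had the extremes on opposite sides of medium, with medians of -0.87 in high and 0.22 in low mice. The list mean was 6.11 to 6.68 in high arrays and 8.49 or more in 3 low and 4 medium arrays, and the part of this marker in the results was tested only by the fits that follow. Ttr stood at -1.35 in the high and 0.15 in the low mice and Clic6 at -1.38 and 0.19. Without the 7 bright arrays 0 probe sets passed the threshold, 2035 had an unadjusted p under 0.05 and 312 did so by the larger p. With the list mean as a covariate these counts were 0, 2105 and 202.

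The 14 mice of inconsistent ranking, not used above, are given as a description. Their mean level of Ccni was 10.85 ± 0.14 (SD), between the low mean of 10.78 ± 0.09 and the medium mean of 10.89 ± 0.09. For Epb41l1 it was 7.66 ± 0.18, near the low mean of 7.71 ± 0.11 and under the medium mean of 7.89 ± 0.12. For Tsc22d1 it was 9.43 ± 0.26 against 9.34 ± 0.19 in medium and 9.74 ± 0.29 in low mice. For Bdnf it was 9.07 ± 0.16 against 8.93 ± 0.18 in medium and 9.10 ± 0.17 in low mice, and for Btg2 it was 7.66 ± 0.31 against 7.28 ± 0.35 and 7.67 ± 0.23. Their ranges overlapped with those of all 3 ranked groups for these 5 genes.

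The other lists were counted with medium replicate 9 and again without it. Of 20 circadian clock genes 5 had both extremes above and 7 below with that array, and 8 and 5 without it. Cholesterol synthesis genes, 18 in all, went from 3 above and 4 below to 5 and 2, and 34 splicing factors from 11 and 9 to 8 and 12. The 23 genes of the postsynaptic density and plasticity kinases went from 5 above and 11 below to 10 and 5. Potassium channel genes, 25 in all, went from 7 and 8 to 9 and 7, and 20 calcium and sodium channel genes from 4 and 9 to 5 and 6. GABA receptor genes, 11 in all, went from 4 and 4 to 3 and 3, and 9 metabotropic glutamate receptor genes from 2 and 3 to 2 and 5. Thalamic and habenular markers, 9 in all, went from 4 above and 1 below to 6 and 0, and 12 meningeal fibroblast markers from 2 and 1 to 1 and 2. Of 2 blood cell markers measured 1 was above and 0 below in both fits. Of 11 interferon response genes 6 were above and 1 below, at a median of 0.041, which was 0.0034 without low replicate 6 and -0.0096 within the largest spike-in set.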

How the data were processed

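Hippocampal RNA of 41 mice was measured on 1 array each. The deposited table holds linear probe set intensity values from 0.0112 to 13549, with RMA and Partek named in the submitters' processing notes and the order of steps not given in the sources used here. A log2 scale had been planned for, so the intensities were first quantile-normalized over 41 arrays and taken as log2(intensity + 16). Of 45101 probe sets 64 controls and those under the median mean level were left out, leaving 22519. One mean per group was fitted to 25 arrays with limma 3.58.1 in R 4.3.3, with Benjamini-Hochberg adjustment over all probe sets and a threshold of 0.05. The fit was tested on simulated data. Permutation tests used scipy 1.17.1 and 100000 resamples. Array number limits the precision. Gene symbols came from the platform annotation, in which 34945 probe sets have 1 symbol, 932 several and 9160 none. Named genes were the 12 per direction with the smallest p, the leading members of each list (4 at most) and a fixed set, and further genes are marked as chosen after their values were seen. The members and lists were chosen with earlier results of these data known. Replicate numbers do not pair the mice. Each array is 1 mouse. Upstream sequences were matched by symbol, and genes without an entry are not shown.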

Additional observations from a re-analysis of the deposited data

Results flagged for a closer look

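In 8 of 190 groups of 5 or 8 arrays examined, 1 array stood apart from the rest by Dixon's criterion at the 95% level, which chance alone reaches in about 5% of groups. Low replicate 5 accounted for 5 of them. In that array Neurod1 was 9.25 with the next array at 8.52, Tsc22d1 was 10.33 with the next at 9.83, and Atf4 was 10.37 with the next at 10.22. In the same array Fcho1 was lowest at 6.37 against 6.59, and Hdac11 was lowest at 8.94 against 9.31. Low replicate 3 had the highest Fgfr3, at 9.57 against 9.36. High replicate 2 had the lowest Irs1 of its group, at 8.76 against 8.88, and high replicate 3 the lowest Kmt2e, at 8.11 against 8.22.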

How the results depend on the processing

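The count past the threshold was 0 under every alternative run except leave-one-out fits, where it ranged from 0 to 1 and Epb41l1 passed without high replicate 1. The count at an unadjusted limma p under 0.05 ranged from 1003 in the largest spike-in set alone to 2480 without medium replicate 12 over the same 22519 probe sets, and was 1666 with the spike-in sets as a block. An exact rank-sum test over 18959 probe sets without ties called 0 after adjustment and 1257 before it. The replicate numbers correlated between -0.171 and 0.141 in 18 pairs, so they do not pair the arrays. With the replicate number as a block in 21 arrays the count was 0, with 2402 at an unadjusted p under 0.05 and 436 by the larger p, and Prox1 (-0.025), Fkbp5 (-0.014) and Hdac2 (-0.011) changed sign. Beside 222 in the main fit, the larger p gave 112 with median centring and 51 with no normalization between arrays. In the largest spike-in set alone it gave 139. With no normalization between arrays the sign turned for Sdhd (-0.022), Ndufa7 (-0.033), Atf4 (-0.029), Ndufa4 (-0.011), Uqcrh (-0.0083), Psmd6 (-0.049), Plk2 (-0.024), Crebbp (-0.047), Rps25 (-0.035), Psma3 (-0.023), Eed (-0.026), Homer1 (-0.076), Fkbp5 (-0.067), Hdac2 (-0.118), Dnmt3a (-0.132) and Gfap (-0.104). In the largest spike-in set alone it turned for Hspa1b (-0.094), Fkbp5 (-0.028), Hdac2 (-0.044), Gfap (-0.0054) and Camk2a (0.125), and with the spike-in sets as a block for Camk2a (0.0097). Median centring turned Dnmt3a (-9.301e-05) and array weights turned Gfap (-0.101). Leaving out 1 array moved Dnmt3a between -0.0029 and 0.038 and Gfap between -0.036 (without medium replicate 9) and 0.077, so neither has a settled direction. List medians near 0 changed sign when 1 array was left out, among them endothelial and pericyte markers (0.027, and -0.0029 without high replicate 2) and astrocyte markers (0.0062, and -0.0098 without medium replicate 1). The causes were not tested. Probe sets near background have little room for a difference.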
